A study of Mus musculus with 6 samples.

Results

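The genes described here are 40 mouse genes whose proteins carry a cell through mitosis, from the cyclins and kinases that start it to the proteins that attach chromosomes to the spindle and divide the cytoplasm. They were taken by symbol from a list and not by a rule on their values, although earlier results of these data were known. All 40 were found among the 55378 genes of the count table. All were also among the 15619 genes that passed the filter on low counts and were tested. Levels were compared in mouse blastocysts collected on day 5 after zygotes had been injected with an siRNA against Eif4a3 (Eif4a3-KD) or with a negative control siRNA (NC). Each group had 3 libraries, each made from 5 pooled embryos, so that a library averages over embryos, and embryos of both groups had been injected. Polyadenylated RNA was amplified by Smart-seq2 and sequenced as pairs of 150-base reads. Strain, age of the parents and the number of siRNAs per gene were not given in the sources used here. Nothing in the labels says that the pools of a group came from separate parents, so p-values measure only the spread between these libraries.

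Eif4a3 encodes the RNA helicase of the exon junction complex, a protein assembly left on mRNA upstream of each splice junction. Mitosis starts when CDK1 bound to a B-type cyclin phosphorylates its substrates, after which chromosomes condense, kinetochores built on CENP-A chromatin capture microtubules, and the spindle checkpoint holds back the anaphase-promoting complex until all are attached. Transcripts of most of these genes accumulate late in the cell cycle, under NF-Y, which binds CCAAT, and under MuvB complexes, which bind the element TTTGAA with MYBL2 or FOXM1. Blastomeres of the preimplantation embryo divide several times before the blastocyst forms, first on proteins and mRNA stored in the egg and later on their own transcripts.

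Promoters of the 4 genes with the smallest p among those that fell are shown because their mRNA moved in the same direction. The 250 bases before each annotated start are given 5′ to 3′ on the gene's strand, from RefSeq on GRCm38.p6, and capitals mark matches to CCAAT, to the element TTTGAA or to TTTGGCGC on either strand.
Top2a, chr11:99024190-99024439, minus strand: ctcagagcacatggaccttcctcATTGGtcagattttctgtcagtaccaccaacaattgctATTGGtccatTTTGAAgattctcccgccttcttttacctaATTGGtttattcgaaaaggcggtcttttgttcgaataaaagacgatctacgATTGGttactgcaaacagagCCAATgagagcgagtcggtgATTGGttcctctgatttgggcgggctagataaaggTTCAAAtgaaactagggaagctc
Espl1, chr15:102296043-102296292, plus strand: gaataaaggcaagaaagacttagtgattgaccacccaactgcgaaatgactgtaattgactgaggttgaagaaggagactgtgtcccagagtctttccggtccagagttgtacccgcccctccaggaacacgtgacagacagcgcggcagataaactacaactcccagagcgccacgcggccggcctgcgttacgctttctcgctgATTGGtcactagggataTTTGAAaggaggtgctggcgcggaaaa
Mki67, chr7:135716380-135716629, minus strand: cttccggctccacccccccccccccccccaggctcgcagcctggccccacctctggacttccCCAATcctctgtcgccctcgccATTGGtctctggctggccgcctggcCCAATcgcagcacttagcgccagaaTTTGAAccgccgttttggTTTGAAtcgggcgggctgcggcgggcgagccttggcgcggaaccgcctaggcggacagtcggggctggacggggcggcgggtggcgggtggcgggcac
Ncapd2, chr6:125191587-125191836, minus strand: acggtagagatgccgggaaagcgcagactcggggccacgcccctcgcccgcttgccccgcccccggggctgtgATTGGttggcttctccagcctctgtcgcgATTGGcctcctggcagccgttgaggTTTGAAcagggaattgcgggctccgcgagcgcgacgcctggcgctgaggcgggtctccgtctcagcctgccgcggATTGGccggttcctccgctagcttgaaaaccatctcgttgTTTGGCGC
The Top2a stretch held 6 copies of CCAAT and 2 of TTTGAA, counting both strands. Espl1 held 1 copy of each, 44 and 27 bases before its start. Mki67 held 3 copies of CCAAT and 2 of TTTGAA, and Ncapd2 held 3 and 1, with TTTGGCGC, a letter pattern bound by E2F factors, 8 bases before its start. None of these matches overlapped another.

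RefSeq windows running from 250 bases before to 50 after the start were matched by symbol for 34 of the 40 genes. CCAAT was found in 25 of them (73.53%) and in 41.06% of the windows of 27025 genes. TTTGAA was likewise found in 25 (73.53%), against 20.23% of all genes' windows. Both elements stood together in 22 windows (64.71%), against 8.97% of all. Letter patterns for E2F factors were found in few windows, with TTTCCCGC in 1 (2.94%), TTTGGCGC in 2 (5.88%) and TTTGCGC in 0. Over all windows the shares were 1.24%, 0.58% and 1.86%. Any of these E2F patterns stood in 3 windows (8.82%), against 3.62% of all. No match to any of the 5 patterns was found for Nusap1, either because its window held none or because it had no window. A match is a description of the letters, not of binding.

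Eif4a3 itself, the target of the siRNA, had a level of 16.0, 36.2 and 56.2 CPM, counts scaled to library size, in the 3 Eif4a3-KD libraries, against 302, 255 and 202 CPM in the NC libraries. Its log2 fold change, here always Eif4a3-KD over NC, was −2.81 (standard error 0.44, adjusted p 0.00512 by edgeR's quasi-likelihood test). Summed counts per library were 16157719 to 18697754 in Eif4a3-KD and 15607227 to 18389986 in NC, which sets the precision of genes with few counts. Defining genes of the blastocyst lineages were detected in both groups. Their sums were lower in Eif4a3-KD without overlap for the inner cell mass and primitive endoderm lists, while the trophectoderm sums overlapped. Trophectoderm markers summed to 518 to 2188 CPM in Eif4a3-KD and 2169 to 5741 CPM in NC, mostly Krt8 and Krt18. Of the 8 tested 4 were lower (5.56% of all genes), and Krt8 did not pass (adjusted p 0.134, edgeR). Markers of the inner cell mass and epiblast summed to 159 to 185 CPM in Eif4a3-KD and 412 to 583 CPM in NC (3 of 8 lower), and those of primitive endoderm to 309 to 345 CPM in Eif4a3-KD and 660.4 to 814 CPM in NC (3 of 6 lower). Among those that did not pass were Klf4 and Gata6, with log2 fold changes of −0.03 and −0.12. Oocyte markers summed to 34.0 to 86.4 CPM in Eif4a3-KD and 71.8 to 135 CPM in NC, with Oosp1 higher and Ooep lower of 6 tested and 2 of 12 genes at 0 in all NC libraries. Most of the NC sum was Ooep, at 63.6 to 108.7 CPM in NC and 10.5 to 35.4 CPM in Eif4a3-KD. The oocyte markers did not all run that way. Padi6, which did not pass, had 19.4 to 35.8 CPM in Eif4a3-KD and 4.73 to 17.0 CPM in NC. Cumulus markers summed to 16.3 to 28.8 CPM in Eif4a3-KD and 3.58 to 15.5 CPM in NC, nearly all of it Amhr2 (0 of 1 tested changed), and 5 of 8 of them were at 0 in all Eif4a3-KD libraries and 6 in all NC libraries. Blood markers summed to 4.12 to 8.55 CPM in Eif4a3-KD and 7.87 to 50.3 CPM in NC (2 of 5 lower), fibroblast markers to 0.963 to 10.7 CPM in Eif4a3-KD and 1.79 to 11.8 CPM in NC, and sperm markers to 0.969 to 3.37 CPM in Eif4a3-KD and 1.04 to 2.43 CPM in NC. The share of counts past the midpoint of a gene's exon blocks, a sign of RNA integrity, had a median over 8134 genes of 49.2%, 54.4% and 50.3% in Eif4a3-KD and 53.0%, 55.8% and 53.7% in NC. The part of these differences in the results below was not tested, and in pooled embryos fewer cells of a type and less RNA per cell cannot be told apart.

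Of the 40 mitotic genes, 5 fell and 0 rose in Eif4a3-KD (edgeR quasi-likelihood test, Benjamini-Hochberg adjusted p under 0.05). The genes that fell were Top2a, Espl1, Mki67, Ncapd2 and Nusap1, which act on chromosome structure, sister chromatid separation and the spindle. Over all tested genes 5.56% fell and 7.52% rose, so that 12.5% of the mitotic genes stood beside 5.56% on the lower side. The fold change was negative for 33 of the 40 genes and positive for 7, and its median was −0.39, against 0.03 over all genes tested. Every Eif4a3-KD library lay under every NC library for 14 of the 40 (35%), a pattern found in 16.4% of all genes. The opposite order held for 2 of them (5%), against 20.1% of all genes, and the groups overlapped for 24. At an unadjusted p under 0.05 there were 13 of the 40, against 30.1% of all genes in either direction; 12 of the 13 were lower (13.7% of all genes) and Mad2l1 alone was higher (16.4% of all genes). DESeq2 called 8 of the 40 lower (Bub1b, Kif11 and Ttk besides those 5) and 0 higher, where 7.02% of the genes it tested were lower and 9.45% higher.

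**Figure D1:**
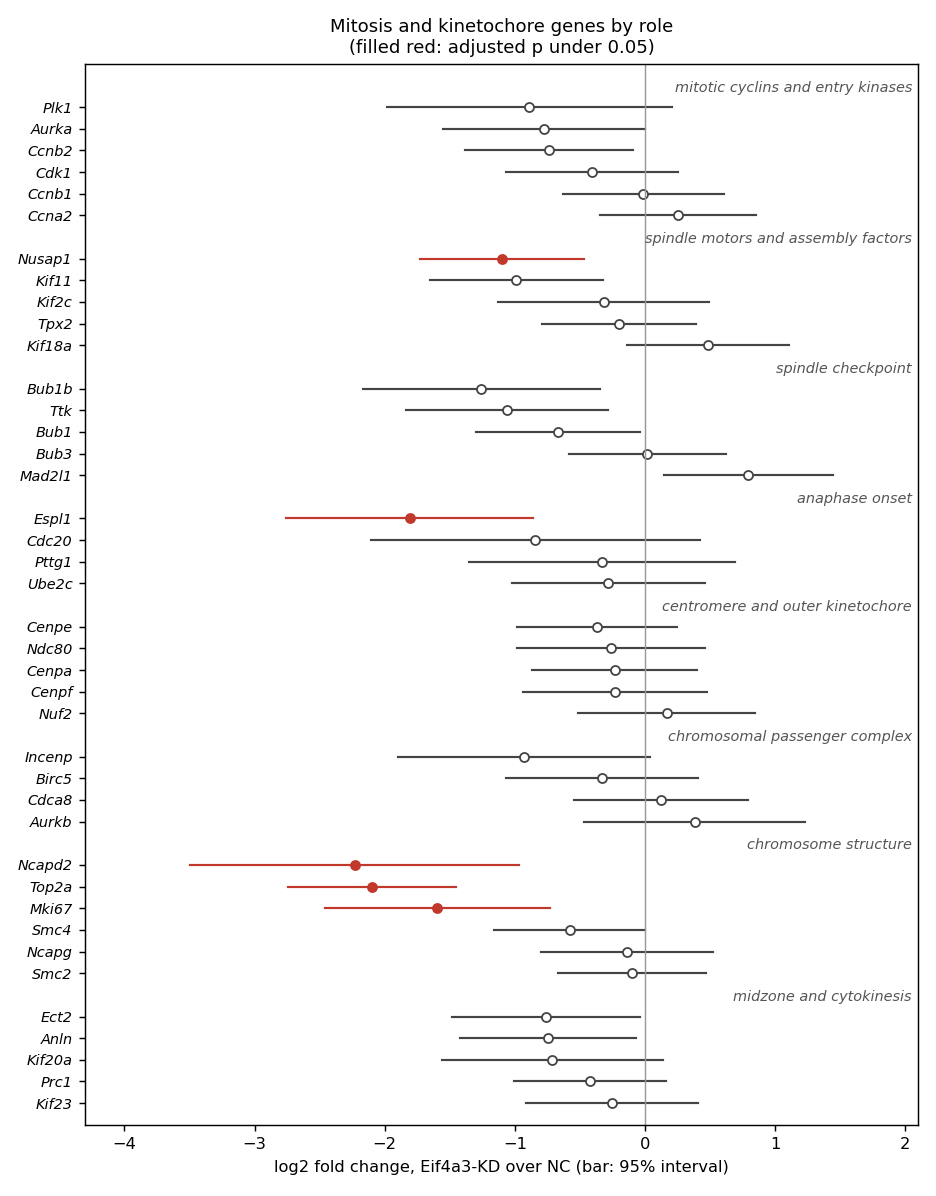
Log2 fold change of each of the 40 genes (horizontal axis, Eif4a3-KD over NC) with its 95% interval, grouped by role and ordered within each role. Filled red points are the 5 genes with an adjusted p under 0.05, and 3 of them stand among the chromosome structure genes.

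The number of genes that fell depended on single libraries. With Eif4a3-KD replicate 1 left out it was 10 of the 40, where 6.97% of all genes fell in the same fit. Leaving out replicate 2 or 3 of that group gave 2 each, with 2.66% and 2.61% of all genes lower. Leaving out NC replicate 1 or 2 gave 1 each, or 2.5% of the 40, which is near the 2.08% and 2% of all genes that fell in those fits. Leaving out NC replicate 3 gave 4, with 3.07% of all genes lower. Top2a was called in each of these 6 fits and in the other 9 alternative analyses. Without Eif4a3-KD replicate 1, the genes Cdc20, Kif11, Kif20a, Plk1 and Ttk joined the 5. That replicate had the lowest Eif4a3 level of its group, and also the most RNA of the trophectoderm keratin Krt8, at 1143 CPM, against 535 and 245 CPM in Eif4a3-KD replicates 2 and 3 and 2633, 1789 and 719 CPM in NC. The part of these differences in the mitotic genes was not tested.

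Summed over the 40 genes, the level was 5747, 5709 and 6322 CPM in the Eif4a3-KD libraries, against 8182, 6888 and 7287 CPM in the NC libraries. All 3 Eif4a3-KD sums lay under all 3 NC sums. The ratio of the group means was 0.795, and 0.773 without Ccnb1, the gene with the largest share of the sum. By role the groups did not overlap for the cyclins and entry kinases, the spindle genes or the chromosome structure genes, and they overlapped for the other 5 roles.

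**Figure D2:**
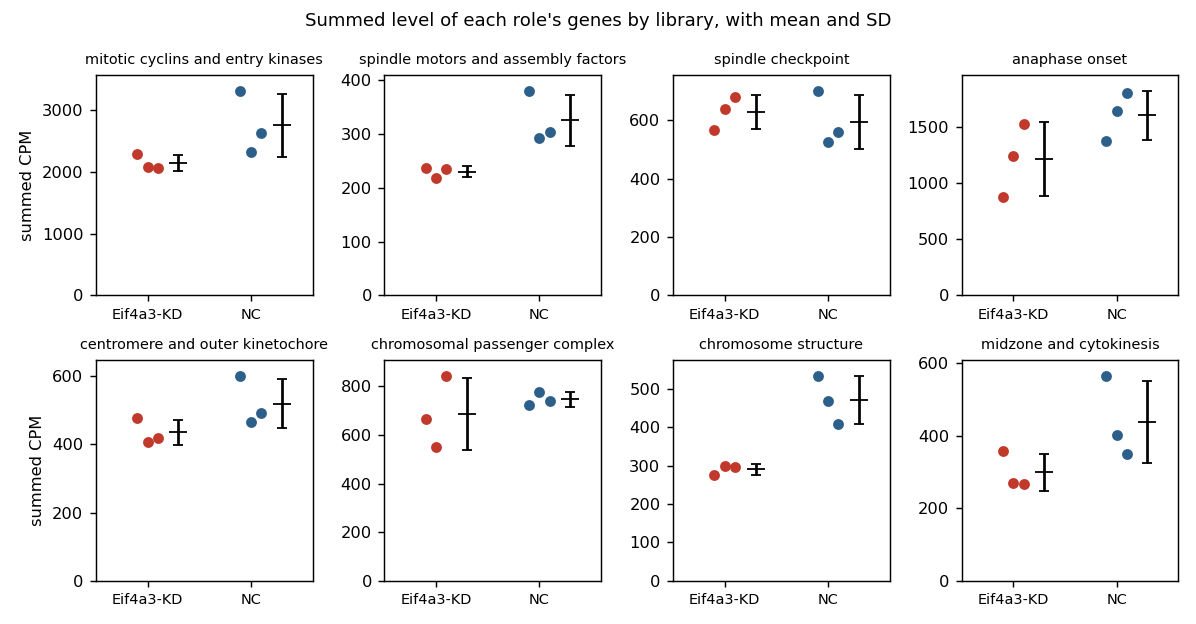
Summed level in CPM of the genes of each of the 8 roles in every library (points), with the mean and standard deviation of each group of 3 libraries. Chromosome structure genes summed to 275 to 299 CPM in Eif4a3-KD and 409 to 533 CPM in NC, while checkpoint genes summed to 567 to 682 CPM in Eif4a3-KD and 525 to 701 CPM in NC.

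Chromosome structure was the role with the most genes past the threshold, 3 of 6, all lower (5.56% of all genes), with a median log2 fold change of −1.09. Top2a, the DNA topoisomerase that untangles sister chromatids and a component of mitotic chromosomes, had the smallest p of the 40. It had 22.3, 23.1 and 25.6 CPM in Eif4a3-KD, against 124, 100.4 and 78.7 CPM in NC, so the 3 Eif4a3-KD libraries lay close together and far under the lowest NC library. It averaged 23.6 ± 1.73 CPM in Eif4a3-KD and 101 ± 22.6 CPM in NC (SD, 3 libraries each), 4.27-fold lower (log2 fold change −2.10, 95% interval −2.74 to −1.45, adjusted p 0.00373, edgeR). Top2a (ENSMUSG00000020914) lies on the minus strand of chromosome 11 from 98992943 to 99024189 (GRCm38).

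Ncapd2, a regulatory subunit of condensin I, had 8.95, 3.998 and 1.75 CPM in Eif4a3-KD, against 33.1, 21.0 and 15.2 CPM in NC. The groups did not overlap, although the Eif4a3-KD libraries differed severalfold among themselves. Its log2 fold change was −2.23 (standard error 0.57, adjusted p 0.0306, edgeR). Leaving out Eif4a3-KD replicate 2 or 3 gave an adjusted p of 0.102 or 0.0614, and leaving out NC replicate 1 or 2 gave 0.0997 or 0.0758. The Ncapd2 call was also lost with library totals as the only scaling, with the sum of all exon lines and with the most counted exon block, so that it held in 8 of 15 alternatives. Ncapd2 (ENSMUSG00000038252) lies on chromosome 6 from 125168007 to 125191701, minus strand.

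Mki67, which encodes the surfactant-like protein that coats mitotic chromosomes and is used as a proliferation marker, had 8.34, 9.21 and 4.69 CPM in Eif4a3-KD, against 21.0, 29.3 and 17.0 CPM in NC. Here too each Eif4a3-KD library lay under each NC library, and the log2 fold change was −1.60 (standard error 0.39, adjusted p 0.0258, edgeR). The call was lost without Eif4a3-KD replicate 2 (adjusted p 0.0511) or 3 (0.0696) and without NC replicate 1 (0.0576) or 2 (0.103). It was also lost with library totals only and with the sum of all exon lines. Mki67 (ENSMUSG00000031004) lies on chromosome 7 from 135689784 to 135716361, minus strand.

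The core condensin subunits did not pass. Smc4, an ATPase of both condensins and the most abundant gene of this role per kilobase, had 112, 109 and 136 CPM in Eif4a3-KD, against 199, 174 and 159.6 CPM in NC. Its groups did not overlap, with a log2 fold change of −0.58 and an adjusted p of 0.166 (edgeR). The partner ATPase Smc2 averaged 90.3 ± 7.52 CPM in Eif4a3-KD and 96.9 ± 10.9 CPM in NC, and Ncapg, the other regulatory subunit of condensin I on the list, averaged 44.9 ± 12.7 CPM in Eif4a3-KD and 49.3 ± 3.88 CPM in NC. Both overlapped between groups (adjusted p 0.826 and 0.795). Subunits of the same complex thus had fold changes from −2.23 for Ncapd2 to −0.10 for Smc2; the difference between them was not tested.

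**Figure D3:**
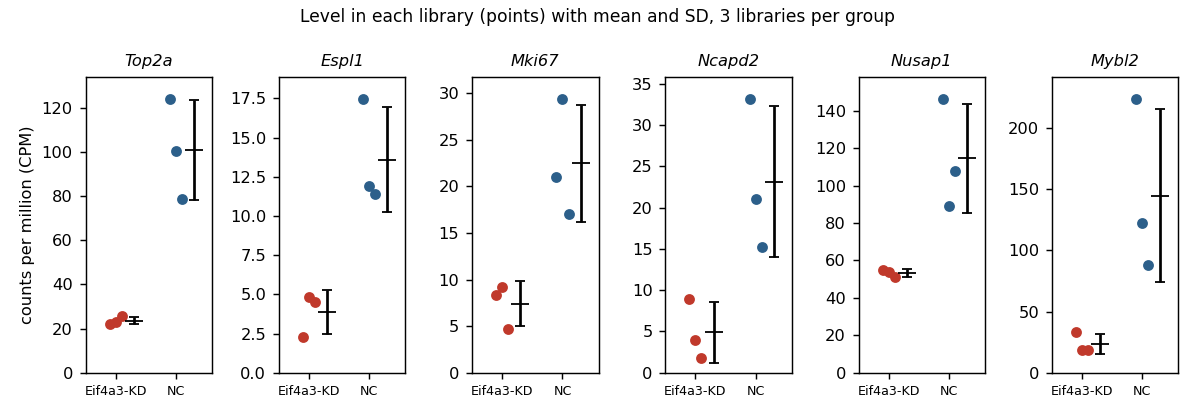
Level in CPM of the 5 mitotic genes that fell and of the transcription regulator Mybl2 in each library (points), with the mean and standard deviation of each group of 3 libraries. In all 6 panels each Eif4a3-KD library lies under each NC library, an order found in 16.4% of all genes.

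Among the genes of anaphase onset 1 of 4 fell (5.56% of all genes), and all 4 had a negative fold change (median −0.59). Espl1, which encodes separase, the protease that cleaves cohesin, had 2.30, 4.85 and 4.51 CPM in Eif4a3-KD, against 17.5, 11.9 and 11.4 CPM in NC. The highest Eif4a3-KD library was well under the lowest NC library. It was 3.50-fold lower (log2 fold change −1.81, 95% interval −2.75 to −0.86, adjusted p 0.0223, edgeR). The call was lost without NC replicate 1 (adjusted p 0.0697) or NC replicate 2 (0.0575) and with the most counted exon block in place of the gene sum (0.135). Espl1 (ENSMUSG00000058290) lies on the plus strand of chromosome 15 from 102296266 to 102324357 and was, per kilobase of exon, the least abundant of the 40 genes.

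Pttg1, which encodes securin, the inhibitor of separase, was the most abundant of the 40 genes per kilobase and had a wide spread. It had 279, 738 and 798 CPM in Eif4a3-KD, against 395, 830.4 and 1058 CPM in NC, and replicate 1 was the lowest in each group. Its log2 fold change was −0.33 (adjusted p 0.672, edgeR). Cdc20, the activator of the anaphase-promoting complex, had 318, 61.6 and 97.5 CPM in Eif4a3-KD, against 399, 302 and 154 CPM in NC. Replicate 1 of Eif4a3-KD stood above 2 of the 3 NC libraries, while the other two were under all of them. The log2 fold change was −0.84 (standard error 0.57, adjusted p 0.350), and it was −1.88 (adjusted p 0.0251, edgeR) without that replicate. Ube2c, the ubiquitin-conjugating enzyme of the same complex, averaged 448 ± 175 CPM in Eif4a3-KD and 545 ± 44.1 CPM in NC (adjusted p 0.610); another gene, Tnnc2, overlaps 22.8% of its exon length, and with unstranded libraries their reads cannot be told apart.

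Of the 5 spindle motors and assembly factors 1 fell (5.56% of all genes), and the median log2 fold change was −0.32. Nusap1, a microtubule-bundling protein of the spindle near chromosomes, had 55.1, 54.0 and 51.2 CPM in Eif4a3-KD, against 146, 89.3 and 108 CPM in NC. The Eif4a3-KD libraries differed by less than 4 CPM from each other. It averaged 53.4 ± 2.0 CPM in Eif4a3-KD and 114 ± 29.0 CPM in NC, 2.14-fold lower in Eif4a3-KD (log2 fold change −1.10, 95% interval −1.73 to −0.47, adjusted p 0.0314, edgeR). This call held without Eif4a3-KD replicate 1, and was lost without replicate 2 (adjusted p 0.0872) or 3 (0.0822) of Eif4a3-KD and without NC replicate 1 (0.111), 2 (0.0579) or 3 (0.0685). It was lost with library totals only as well. Nusap1 (ENSMUSG00000027306) lies on chromosome 2 from 119618298 to 119651244, plus strand.

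Kif11, the kinesin that pushes spindle poles apart, had 27.6, 23.3 and 21.5 CPM in Eif4a3-KD, against 61.1, 41.8 and 40.9 CPM in NC. These groups did not overlap, yet its adjusted p was 0.0546 (log2 fold change −0.99, standard error 0.30, edgeR), just outside the threshold. DESeq2 gave Kif11 an adjusted p of 0.0317, and without Eif4a3-KD replicate 1 the edgeR value was 0.0479. Kif18a, a kinesin that limits microtubule length at kinetochores, ran the other way, at 34.7 ± 2.99 CPM in Eif4a3-KD and 24.8 ± 2.39 CPM in NC without overlap (log2 fold change 0.48, adjusted p 0.274). The microtubule depolymerase Kif2c averaged 30.1 ± 14.5 CPM in Eif4a3-KD and 37.6 ± 4.78 CPM in NC. Tpx2, the spindle activator of Aurora A, averaged 87.8 ± 15.7 CPM in Eif4a3-KD and 101 ± 9.47 CPM in NC. Both of these overlapped (adjusted p 0.598 for Kif2c and 0.658 for Tpx2).

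Spindle checkpoint genes ran in both directions, with log2 fold changes from −1.26 to 0.79 and a median of −0.67. By edgeR 0 of 5 passed, and 4 had an unadjusted p under 0.05, as had 30.1% of all genes. DESeq2 called Bub1b and Ttk lower (7.02% of all genes it tested). Bub1b, which encodes the checkpoint protein BubR1, had 9.79, 21.1 and 19.8 CPM in Eif4a3-KD, against 51.2, 46.7 and 23.4 CPM in NC (log2 fold change −1.26, adjusted p 0.0692, edgeR). Ttk, the kinase also called Mps1 that starts checkpoint signalling, had 29.9, 22.2 and 13 CPM in Eif4a3-KD, against 49.6, 40.8 and 45.6 CPM in NC (log2 fold change −1.06, adjusted p 0.0708). For both genes every Eif4a3-KD library lay under every NC library.

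Bub1, the kinase that recruits BubR1 to kinetochores, averaged 37.9 ± 4.93 CPM in Eif4a3-KD and 60.3 ± 12.3 CPM in NC without overlap (log2 fold change −0.67, adjusted p 0.146). Mad2l1, which encodes the checkpoint inhibitor Mad2, was the other way round at 236 ± 50.7 CPM in Eif4a3-KD and 136 ± 24.9 CPM in NC. Its groups did not overlap, and the log2 fold change of 0.79 (95% interval 0.15 to 1.44) had an adjusted p of 0.0987 (edgeR). Bub3, the partner that carries Bub1 and BubR1 to kinetochores, had 313, 292 and 344 CPM in Eif4a3-KD, against 382, 279 and 278 CPM in NC. Its log2 fold change was 0.02 (95% interval −0.59 to 0.62), and its sign varied between analyses.

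Of the 6 mitotic cyclins and entry kinases 0 passed by edgeR or DESeq2 and 1 had an unadjusted p under 0.05 (30.1% of all genes), with a median log2 fold change of −0.57. That gene was Ccnb2, the membrane-associated B-type cyclin, with 353, 277 and 408 CPM in Eif4a3-KD, against 644, 464 and 617 CPM in NC. It was the only gene of this role whose groups did not overlap (log2 fold change −0.73, adjusted p 0.120). Ccnb1, the B-type cyclin essential for mitotic entry in the mouse, averaged 760.4 ± 120.2 CPM in Eif4a3-KD and 768 ± 70.7 CPM in NC. Its log2 fold change was −0.01 (95% interval −0.63 to 0.60), and its sign varied between analyses.

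Aurka, the kinase of centrosome maturation, had 544, 284 and 388 CPM in Eif4a3-KD, against 946, 525 and 607 CPM in NC. Only Eif4a3-KD replicate 1 reached into the NC range, and the log2 fold change was −0.77 (adjusted p 0.167, edgeR). Plk1, the kinase that drives entry and spindle assembly, averaged 56.8 ± 40.3 CPM in Eif4a3-KD and 105 ± 48.6 CPM in NC; its log2 fold change was −0.89 (adjusted p 0.256), and −1.69 (adjusted p 0.0303, edgeR) without Eif4a3-KD replicate 1. Cdk1, the kinase itself, averaged 267 ± 65.7 CPM in Eif4a3-KD and 354 ± 68.6 CPM in NC (adjusted p 0.394). Ccna2, the A-type cyclin of S phase and entry, averaged 306 ± 53.3 CPM in Eif4a3-KD and 257 ± 21.4 CPM in NC (adjusted p 0.575), with Exosc9 overlapping 12.5% of its exon length.

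Of the 5 centromere and outer kinetochore genes 0 passed by edgeR or DESeq2. Of these genes 0 had an unadjusted p under 0.05, all 5 overlapped between groups, and the median log2 fold change was −0.23. Cenpa, the histone H3 variant that marks the centromere, had 136, 179.7 and 202 CPM in Eif4a3-KD, against 251, 184 and 174 CPM in NC (log2 fold change −0.23, 95% interval −0.87 to 0.40). Cenpe, the kinetochore kinesin that moves chromosomes to the metaphase plate, had 173, 127 and 122 CPM in Eif4a3-KD, against 212, 156 and 177 CPM in NC (log2 fold change −0.37, 95% interval −0.98 to 0.25, adjusted p 0.408, edgeR). Within each gene the spread between libraries was as wide as the gap between the group means or wider, and changes inside these intervals were not detectable here.

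Ndc80 and Nuf2, which together form the microtubule-binding end of the NDC80 complex, averaged 63.5 ± 26.1 and 36.1 ± 8.41 CPM in Eif4a3-KD, against 76.1 ± 6.73 and 32.2 ± 5.94 CPM in NC. Both had their highest Eif4a3-KD value in replicate 1. Cenpf, a large protein of the outer corona, averaged 21.8 ± 5.73 CPM in Eif4a3-KD and 25.7 ± 3.69 CPM in NC. The adjusted p of these 3 genes was 0.632, 0.760 and 0.664.

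The chromosomal passenger complex, which corrects wrong microtubule attachments, also had 0 of 4 genes past the threshold by edgeR and DESeq2 and 0 with an unadjusted p under 0.05, and all 4 overlapped (median −0.10). Incenp, its scaffold, had 7.12, 9.87 and 8.79 CPM in Eif4a3-KD, against 23.8, 17.6 and 7.74 CPM in NC. Only NC replicate 3 lay within the Eif4a3-KD range, and the log2 fold change was −0.93 (adjusted p 0.180, edgeR). Birc5, which encodes survivin, the subunit that finds the centromere, had 227, 320.3 and 484 CPM in Eif4a3-KD, against 365, 496 and 436 CPM in NC (log2 fold change −0.33, adjusted p 0.542). The kinase Aurkb averaged 53.2 ± 26.9 CPM in Eif4a3-KD and 40.9 ± 8.16 CPM in NC, and Cdca8, which encodes borealin, averaged 281 ± 81.9 CPM in Eif4a3-KD and 257 ± 25.9 CPM in NC. Their positive fold changes of 0.38 and 0.13 became −0.13 and −0.10 without Eif4a3-KD replicate 1.

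All 5 midzone and cytokinesis genes had a negative fold change (median −0.71), but by edgeR and DESeq2 0 passed; 2 had an unadjusted p under 0.05 (30.1% of all genes). Anln, an actin-binding scaffold of the contractile ring, had 42.9, 51.2 and 42.2 CPM in Eif4a3-KD, against 104, 65.3 and 58.9 CPM in NC (log2 fold change −0.75, adjusted p 0.131). Ect2, the exchange factor that activates RhoA at the division site, had 38.6, 29.0 and 23.2 CPM in Eif4a3-KD, against 67.2, 40.1 and 46.5 CPM in NC (log2 fold change −0.76, adjusted p 0.146). Neither gene overlapped between groups, although NC replicate 1 was the highest for both. Kif20a, a kinesin of the central spindle, had 119, 48.2 and 56.8 CPM in Eif4a3-KD, against 158, 115 and 93.0 CPM in NC (log2 fold change −0.71, adjusted p 0.242). Without Eif4a3-KD replicate 1 its log2 fold change was −1.26 (adjusted p 0.0341, edgeR), and Cdc23 overlaps 29.3% of its exon length. Prc1, which bundles midzone microtubules, averaged 77.4 ± 5.91 CPM in Eif4a3-KD and 104 ± 16.8 CPM in NC without overlap. Kif23, the motor of centralspindlin, averaged 70.9 ± 8.12 CPM in Eif4a3-KD and 84.5 ± 25.7 CPM in NC (adjusted p 0.310 for Prc1 and 0.610 for Kif23).

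Some features of the genes went along with the size of the fold change and are given as descriptions. Across the 40 genes, which share the same 6 libraries, Spearman's rho of the log2 fold change was −0.46 with the number of exon blocks, 0.35 with the mean level and 0.06 with exon length. Over all genes tested the same values were −0.16, −0.11 and −0.14. Of the 5 genes that fell, Espl1, Mki67 and Ncapd2 were among the 10 least abundant of the 40 per kilobase, and Top2a and Nusap1 held ranks 28 and 17 from the top.

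Beyond the 40 genes, 148 other mitotic genes in 8 lists were all tested, and 5 rose and 11 fell (7.52% and 5.56% of all genes). The median log2 fold change of these genes was −0.22. With library totals as the only scaling the split was 6 higher and 4 lower, beside 7.04% and 3.51% of all genes. Among 39 other kinetochore and centromere genes 3 rose and 2 fell, near the 7.52% and 5.56% of all genes. The 3 that rose were Cenpk, Cenpm and Cenpq, subunits of the constitutive centromere network that sits on CENP-A chromatin. The other listed subunits of that network did not pass, with log2 fold changes from −0.88 (Cenpw) to 0.66 (Cenph). Cenpk had 107, 192 and 159 CPM in Eif4a3-KD, against 47.2, 52.0 and 63.3 CPM in NC (log2 fold change 1.50, standard error 0.31, adjusted p 0.0131, edgeR). Cenpm had 245, 359 and 479.8 CPM in Eif4a3-KD, against 82.4, 130.2 and 174 CPM in NC (log2 fold change 1.49, adjusted p 0.0268). Cenpq averaged 55.0 ± 6.48 CPM in Eif4a3-KD and 26.7 ± 4.53 CPM in NC (log2 fold change 1.04, adjusted p 0.0385). All 3 stood higher in every Eif4a3-KD library than in any NC library, an order found in 20.1% of all genes. They are named because they rose, so this order adds no support.

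The 2 kinetochore genes that fell act in the checkpoint. Kntc1, a subunit of the RZZ complex that brings Mad1 to unattached kinetochores, averaged 13.6 ± 4.42 CPM in Eif4a3-KD and 36.3 ± 2.11 CPM in NC (log2 fold change −1.42, adjusted p 0.0214, edgeR). Mad1l1, which encodes Mad1, the binding partner of Mad2, averaged 5.40 ± 2.62 CPM in Eif4a3-KD and 21.5 ± 12.9 CPM in NC (log2 fold change −1.99, adjusted p 0.0377). Mad2l1 itself, with a log2 fold change of 0.79, did not pass.

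In the other lists the changes were mostly single genes, where 5.56% of all genes fell and 7.52% rose. By list, 6.90% of spindle and centrosome genes, 5.88% of the anaphase-promoting complex list and 7.14% of cohesin genes fell, near the share of all genes. Of the 4 other condensin subunits 25% fell, and of the 11 cytokinesis genes 18.2%, from 1 and 2 genes. Spindle and centrosome genes had 2 of 29 lower, the chromokinesin Kif4 (log2 fold change −1.20, adjusted p 0.0423, edgeR) and Cdca3, a trigger of mitotic entry (−0.94, adjusted p 0.0438), with a median of −0.53. Both calls were lost with any single library left out, and from the most counted exon block the log2 fold change of Kif4 was −0.04 (adjusted p 0.951). Of 17 genes of the anaphase-promoting complex and its regulators, the large scaffold subunit Anapc1 fell (−1.16) and the small subunit Anapc16 rose (1.10). Cohesin and its regulators had 1 of 14 lower, Pds5b (−1.74), which controls cohesin release. Among the other condensin subunits 1 of 4 fell, Ncapd3 of condensin II (−1.17), at 18.3 ± 2.45 CPM in Eif4a3-KD and 41.3 ± 1.71 CPM in NC. Cytokinesis genes had 2 of 11 lower, Racgap1, the partner of Kif23 in centralspindlin (−1.41, at 53.2 ± 17.8 CPM in Eif4a3-KD and 141 ± 51.4 CPM in NC), and the kinase gene Rock2 (−1.32, adjusted p 0.0479, edgeR), whose call was likewise lost with any single library left out. The entry regulators, among them Wee1 and the Cdc25 phosphatases, had 0 of 16 past the threshold by edgeR, and 1 had an unadjusted p under 0.05 (30.1% of all genes).

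Among the genes of all these lists that passed, the one with the largest fall came from the list of transcription regulators of mitotic genes. Whether that gene had a part in the other changes was not tested. Mybl2, the B-Myb subunit that joins MuvB to activate late cell cycle genes, had 33.0, 18.8 and 19.0 CPM in Eif4a3-KD, against 223, 122 and 87.7 CPM in NC. Its highest Eif4a3-KD library had less than the lowest NC library by more than 50 CPM. It was 6.12-fold lower (log2 fold change −2.61, 95% interval −3.53 to −1.69, adjusted p 0.00535, edgeR) and was called in all 15 alternative analyses. E2f8, an atypical E2F repressor, fell at a low level, at 1.43 ± 0.965 CPM in Eif4a3-KD and 5.47 ± 1.28 CPM in NC (log2 fold change −1.94, adjusted p 0.0491). Tfdp2, a dimerization partner of E2F factors, rose to 56.5 ± 14.1 CPM in Eif4a3-KD, against 23.2 ± 5.71 CPM in NC (log2 fold change 1.28, adjusted p 0.0294). Foxm1, which acts with MuvB after Mybl2, averaged 3.15 ± 2.32 CPM in Eif4a3-KD and 5.65 ± 2.45 CPM in NC with overlap (adjusted p 0.450).

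Most calls in these lists depended on single libraries. With Eif4a3-KD replicate 1 left out 6 rose and 11 fell, with replicate 2 of that group left out 1 rose and 5 fell, and with its replicate 3 left out 1 rose and 2 fell. Leaving out NC replicate 1 gave 1 that rose and 2 that fell, leaving out NC replicate 2 gave 0 and 1, and leaving out NC replicate 3 gave 2 and 5. Over all genes between 3.27% and 7.55% rose and between 2% and 6.97% fell in the same fits. Mybl2 was called in all 6 of these fits, while the other 15 genes that passed were called in 0 (Kif4, Cdca3 and Rock2) to 4 (Cenpk) of them.

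**Figure D4:**
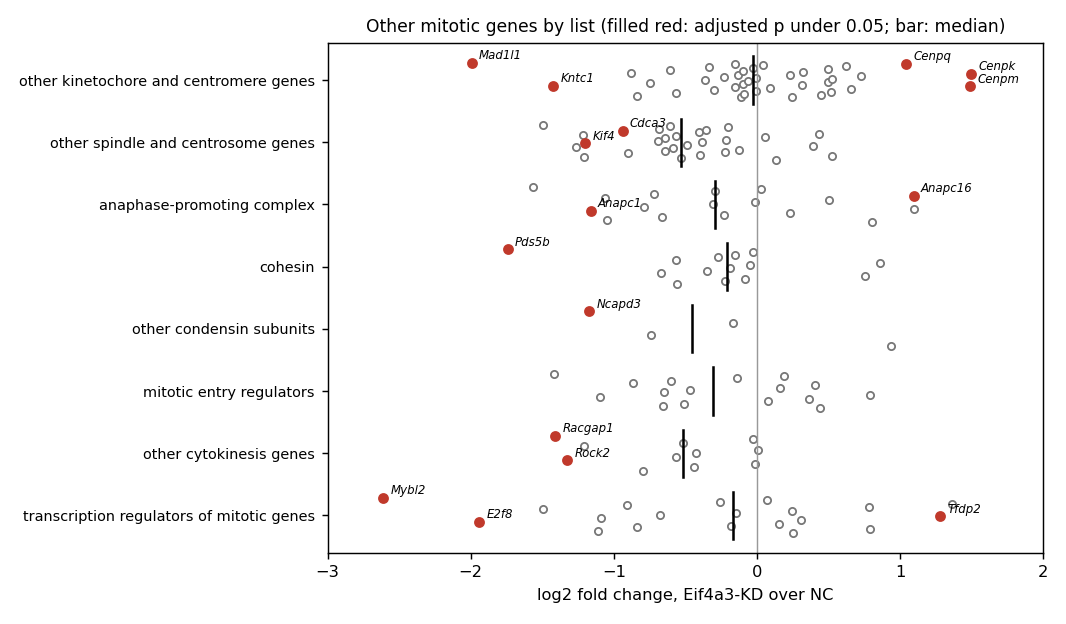
Log2 fold change (Eif4a3-KD over NC) of 148 other mitotic genes by list, with each list's median as a bar; Cep55 and Kif14 stand in 2 lists. Filled red points are the 16 genes with an adjusted p under 0.05, from Mybl2 at −2.61 to Cenpk at 1.50.

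Because Eif4a3 acts on spliced mRNA, the counts were also read exon by exon, with overlapping exons of a gene merged into blocks numbered from the 5′ end. A test of block use, which asks whether a block changed differently from the rest of its gene, called 0 of 522 tested blocks of the 40 genes (edgeR diffSpliceDGE, lowest adjusted p 0.457), and 0.184% of 67890 blocks in all. An unadjusted p under 0.05 was found for 5 of the 522 blocks, blocks 20 to 23 of Top2a and block 2 of Cdca8, and for 2.529% of all blocks. Combined by gene with the Simes method, 0 of 40 genes passed, against 0.969% of all genes. No other tool was run on the blocks.

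Among the blocks with at least 60 counts over all libraries, every block was lower in Eif4a3-KD for each gene that fell: 35 of 35 in Top2a, 11 of 11 in Nusap1, 5 of 5 in Espl1, 6 of 6 in Ncapd2 and 3 of 3 in Mki67. These genes were picked because the sums of the same blocks fell, so lower blocks were largely fixed in advance. Blocks of a gene also share pairs that span junctions, and the counts are a description only. In Nusap1 blocks 2 to 11 stood within a narrow band, and the gene's lowest and highest blocks were at 39.4% and 79.8% of the NC level. Top2a varied more along its length. Its lowest block, block 20, stood at 6.01% of NC with 11 counts in Eif4a3-KD and 178 in NC, and its highest, block 2, at 42.8%. Divided into 3 runs of 12 blocks after these values had been seen, Top2a stood at 33.5% of NC in blocks 1 to 12, at 11.2% in blocks 13 to 24 (chromosome 11, 99001350 to 99010138) and at 23.2% in blocks 25 to 36. The middle run had 3.09, 2.67 and 2.17 CPM in Eif4a3-KD, against 34.4, 20.9 and 15.7 CPM in NC. No block of Top2a passed the test of block use.

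**Figure D5:**
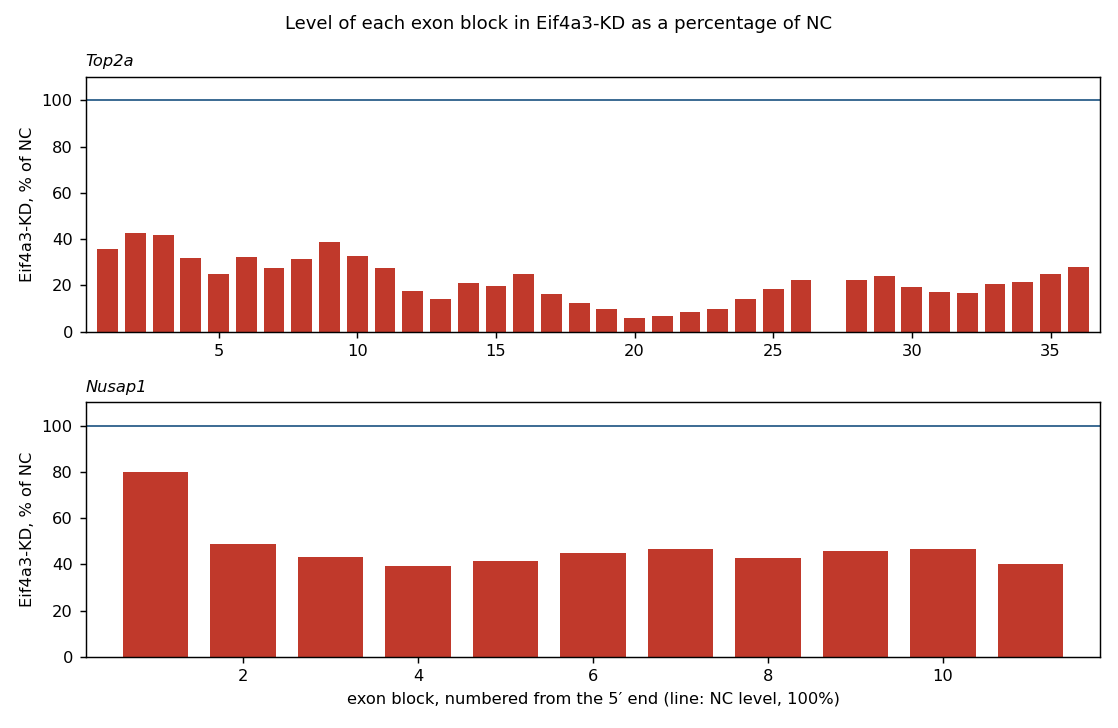
Level of each exon block of Top2a and Nusap1 in Eif4a3-KD as a percentage of its NC level, from mean CPM of 3 libraries each, for blocks with at least 60 counts. Bars of Top2a go down to 6.01% at block 20, and those of Nusap1 lie between 39.4% and 79.8%; the line marks the NC level.

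A few rare annotated exons had more counts in Eif4a3-KD than in NC, nearly all of them in Eif4a3-KD for 1 exon of Bub3. They had too few counts in too many libraries for the test of block use with all 6 libraries, and they are named after their counts had been seen. Block 3 of Bub3 is a 73-base exon at chr7:131563633-131563705, plus strand, between blocks 2 and 4. In GENCODE vM21 it belongs to Bub3-202, a transcript annotated as protein coding, and its length is not a multiple of 3. Whether the exon lies in the coding part of that transcript was not checked. Its sequence, shown because the block stood apart from the rest of the gene, is given in the next line from that transcript.
Bub3 block 3: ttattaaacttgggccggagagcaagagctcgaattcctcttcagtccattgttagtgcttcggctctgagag
It had 42, 24 and 6 counts in the Eif4a3-KD libraries, against 1, 0 and 0 in the NC libraries. The blocks before and after it had 3508 and 3528 counts in Eif4a3-KD and 3095 and 3290 in NC. As a share of the mean of those neighbours, block 3 stood at 3.07%, 2.42% and 0.519% in Eif4a3-KD, against 0.064%, 0% and 0% in NC. All Eif4a3-KD libraries were higher, and the level of the gene as a whole, 316 CPM in Eif4a3-KD and 313 CPM in NC, did not pass the test. The block was picked for these counts, so no p is given. With a library left out, the test of block use called it without Eif4a3-KD replicate 3 and without NC replicate 1, 2 or 3. In those fits the smaller group had 2 libraries, and the block passed the low-count filter through its 42 and 24 Eif4a3-KD counts. Those calls therefore add no support. Without Eif4a3-KD replicate 1 or 2 the filter removed the block, so it was not tested.

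Block 3 of Ndc80, a 52-base exon on chromosome 17 (71523392 to 71523443) that GENCODE vM21 places in Ndc80-205, a transcript annotated as a target of nonsense-mediated decay, had 14, 9 and 11 counts in Eif4a3-KD, against 3, 3 and 1 in NC. Relative to the mean of its neighbouring blocks it stood at 9.27%, 17.6% and 24.4% in Eif4a3-KD, against 3.30%, 5.71% and 1.32% in NC. These ranges did not overlap, but the counts are small and the block was not tested. Block 12 of Cdca8 had 19, 3 and 8 counts in Eif4a3-KD, against 0, 2 and 4 in NC, and its shares of the neighbouring blocks overlapped between groups.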

How the data were processed

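Per the submitters' processing notes, the authors used FastQC 0.11.9, fastp 0.20.1, STAR 2.7.6a, featureCounts 2.0.1, R 4.1.1 and DESeq2 1.34.0, and the build was GRCm38. Per the file headers, the deposited values are raw counts of read pairs per exon line, made by featureCounts with strand setting 2, with every overlapped line counted and without the option for pairs with several alignments. Smart-seq2 as described in the labels does not mark strand, so pairs of the other orientation are not counted, and overlapping genes cannot be told apart.

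From 842173 lines, repeated exons were dropped and overlapping exons of a gene merged into 291424 blocks. Each block took the value of its line with the most counts, and a gene the sum of its blocks. A pair spanning a junction counts in more than 1 block, so the sums are not numbers of pairs. The planned test assumed such merging for exon-level counts. Symbols were matched for 55102 of 55378 genes. All 6 columns were mapped to samples.

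Groups of 3 libraries were compared with edgeR 4.0.16 under R 4.3.3 (filterByExpr, TMM, glmQLFit, glmQLFTest, two-sided, Benjamini-Hochberg adjustment over 15619 genes, threshold 0.05). Levels are CPM of the effective library size with SD over 3 libraries. Standard errors come from the quasi-likelihood F statistic. DESeq2 1.42.0 was an alternative, besides other scalings, filters, gene counts, left-out libraries and a replicate block. Block use was tested with diffSpliceDGE. The tests were checked on simulated data. No replicates were duplicates: chi-square per degree of freedom was 43.0 or more for every pair of a group.

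The 40 genes, the other lists and the rules were chosen with earlier results of these data known. All 40 genes are named; values per library are given for those past the threshold and, in each role, for the 2 with the smallest p and the most abundant per kilobase. From the other lists the genes past the threshold are named; Wee1 and Foxm1 were chosen after their values were seen.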

Additional observations from a re-analysis of the deposited data

How the results depend on the processing

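Of the 40 genes, 33 kept the sign of their fold change in all 15 alternatives, and 27 of the 35 that did not pass never passed. The number that fell was 5 with RLE or upper quartile scaling and with a filter of 5 CPM, 7 with no filter (4.78% of all genes), 2 with library totals only (3.51%), 3 from the sum of all exon lines (2.97%), 3 from the most counted block (7.35%) and 8 by DESeq2 (7.02%). It ranged between 1 and 10 when single libraries were left out, and 0 rose in any setting. The median of the 40 genes lay between −0.58 and −0.40 with a library left out. Genes of the other lists that rose numbered 3 and those that fell 5 from all exon lines; 4 fell with library totals only and 4 with the most counted block; they ranged between 0 and 6 higher and between 1 and 11 lower with a library left out. The summed level was 0.873 of NC from the most counted block.

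Over all genes, 548 fell with library totals only, 495 with all exon lines, 1894 rose and 1407 fell by DESeq2, and 2089 rose and 1518 fell with no filter; the numbers ranged between 550 and 1224 higher and between 336 and 1130 lower with a library left out. The median over all genes was 0.18 by DESeq2 and 0.17 with no filter, over more genes, against 0.03. Called blocks of the 40 genes ranged between 0 and 1 with a library left out, and the called block was always block 3 of Bub3. That block passed the low-count filter only in the fits that called it.

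The sign turned for genes near 0. Ccnb1 had 0.067 with upper quartile scaling, 0.0331 with library totals only, 0.0529 with the 5 CPM filter, 0.0293 with all exon lines and 0.163 with the most counted block, and ranged between −0.146 and 0.0696 with a library left out (above 0 without Eif4a3-KD replicate 3 or NC replicate 1). Bub3 had −0.00203 by DESeq2, −0.00889 with no filter, −0.00824 with all exon lines and −0.0185 with the most counted block, and ranged between −0.109 and 0.169 with a library left out (below 0 without Eif4a3-KD replicate 1 or 3 or NC replicate 2 or 3). Kif23 had 0.30 with the most counted block. With a library left out, Nuf2 ranged between −0.0837 and 0.267, Aurkb between −0.129 and 0.666, Cdca8 between −0.104 and 0.342, and Ncapg between −0.378 and 0.0207. The first 3 were below 0 without Eif4a3-KD replicate 1, Nuf2 also without NC replicate 2, and Ncapg was above 0 without Eif4a3-KD replicate 3. The cause was not tested.

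Same-numbered libraries had deviation correlations of 0.269, 0.00261 and 0.1, and libraries with different numbers reached 0.186. The value for replicate 1 lay above the highest for different numbers, and the other same-numbered values lay below it. These values do not decide whether the numbers pair samples, and the main comparison did not pair them. With the replicate number as a block, 10 of the 40 genes fell (Aurka, Ccnb2, Kif11, Plk1 and Ttk besides the 5), 0 blocks were called, and over all genes 1331 rose and 1196 (7.66%) fell.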
